A study of Homo sapiens with 8 samples.

Results

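The clustered histone genes described here were the RefSeq protein-coding genes on chromosomes 1, 6 and 12 whose symbols are H1-1 to H1-6 or begin with H2AC, H2BC, H3C or H4C. The rule took 69 of 19974 protein-coding genes: 6 of linker histone H1, 17 of H2A, 18 of H2B, 13 of H3 and 15 of H4. The mark studied was H3K27ac, histone H3 acetylated at lysine 27, which is found at promoters and enhancers in use. It had been mapped by ChIP-seq in MDA-MB-231, a triple-negative breast cancer line in long use. The groups were control cells and ARID1A knockout cells, and ARID1A is part of the chromatin remodeller SWI/SNF. For either genotype the labels gave 2 libraries of precipitated DNA and 2 of input, yet there was 1 peak list. Values therefore carry no replicate error, and the genotypes could not be compared by a test. The sources used here do not say how the knockout was made, whether it is 1 clone, or whether replicates came from separate cultures. The sample characteristics named an antibody to H3K27ac and the extraction protocol one to H3K4me3, and the name in the titles and characteristics is used here.

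Clustered histone genes supply the core and linker histones that package newly copied DNA. Their short, intronless transcripts end in a stem-loop in place of a poly(A) tail, and they are made mainly in S phase in the histone locus body, where NPAT, a substrate of cyclin E-CDK2, activates them. Many H2A and H2B genes lie head to head and share the stretch between their starts. The genes are many near copies of few proteins, whereas H1-6, H2AC1 and H2BC1 are known for expression in testis.

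The start-proximal sequences show which elements the genes carry, and 2 pairs with a peak are set beside 2 without. The first 2 of these stretches between divergent H2A and H2B genes lay under a peak in both genotypes. H2AC7/H2BC7 lay in a long stretch without peaks, and H2AC1/H2BC1 is the testis pair. Capitals mark the motifs searched on both strands: the CCAAT box, the TATA box as TATAAA, the octamer ATTTGCAT bound by OCT1, the H4 element GGTCCG, the SP1 box GGGCGG and the H1 AC box AAACACA. Sequences are from RefSeq on GRCh38.p14.
H2BC11/H2AC11 (chr6:27132796-27133042, plus strand): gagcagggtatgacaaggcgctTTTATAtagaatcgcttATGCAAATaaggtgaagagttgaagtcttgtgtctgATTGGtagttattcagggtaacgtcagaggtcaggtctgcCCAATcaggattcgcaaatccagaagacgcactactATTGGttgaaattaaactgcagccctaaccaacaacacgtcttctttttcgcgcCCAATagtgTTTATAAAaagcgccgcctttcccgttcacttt
H2BC21/H2AC20 (chr1:149886683-149886917, plus strand): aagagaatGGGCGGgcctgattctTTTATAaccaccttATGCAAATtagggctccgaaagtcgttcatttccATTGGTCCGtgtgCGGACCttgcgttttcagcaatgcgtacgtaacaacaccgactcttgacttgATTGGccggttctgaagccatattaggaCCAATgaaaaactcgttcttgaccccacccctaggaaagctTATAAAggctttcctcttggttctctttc
H2AC7/H2BC7 (chr6:26199294-26199515, plus strand): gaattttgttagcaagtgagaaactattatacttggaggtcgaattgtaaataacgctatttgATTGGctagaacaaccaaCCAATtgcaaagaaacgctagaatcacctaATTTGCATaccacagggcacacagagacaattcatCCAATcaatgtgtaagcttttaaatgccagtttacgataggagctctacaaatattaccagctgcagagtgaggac
H2AC1/H2BC1 (chr6:25726563-25726776, plus strand): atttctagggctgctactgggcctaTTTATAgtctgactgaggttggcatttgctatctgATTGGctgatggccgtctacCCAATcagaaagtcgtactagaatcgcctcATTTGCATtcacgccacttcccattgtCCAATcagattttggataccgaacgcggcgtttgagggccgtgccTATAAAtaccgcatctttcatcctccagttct

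For H4, H3 and H1, the 120 bases before the start are given for a gene with a peak and then for 1 without, in the direction of transcription, and the testis gene H1-6 follows.
H4C8 (chr6:26285535-26285654, minus strand): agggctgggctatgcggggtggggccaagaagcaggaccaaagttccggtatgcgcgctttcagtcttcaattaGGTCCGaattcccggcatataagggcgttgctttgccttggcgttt
H4C4 (chr6:26189113-26189232, minus strand): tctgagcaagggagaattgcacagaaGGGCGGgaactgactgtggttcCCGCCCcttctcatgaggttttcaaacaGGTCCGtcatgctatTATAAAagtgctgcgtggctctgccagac
H3C2 (chr6:26032100-26032219, minus strand): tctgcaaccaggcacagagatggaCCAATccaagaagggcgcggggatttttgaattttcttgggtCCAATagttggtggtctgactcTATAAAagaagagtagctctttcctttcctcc
H3C7 (chr6:26250636-26250755, minus strand): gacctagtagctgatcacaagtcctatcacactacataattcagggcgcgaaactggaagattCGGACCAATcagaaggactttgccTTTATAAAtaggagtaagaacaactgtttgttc
H1-2 (chr6:26056471-26056590, minus strand): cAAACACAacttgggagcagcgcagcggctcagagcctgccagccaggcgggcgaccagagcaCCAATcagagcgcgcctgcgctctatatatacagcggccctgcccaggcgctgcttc
H1-3 (chr6:26234988-26235107, minus strand): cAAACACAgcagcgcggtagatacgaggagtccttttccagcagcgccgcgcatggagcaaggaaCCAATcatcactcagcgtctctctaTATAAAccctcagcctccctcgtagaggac
H1-6 (chr6:26108136-26108255, minus strand): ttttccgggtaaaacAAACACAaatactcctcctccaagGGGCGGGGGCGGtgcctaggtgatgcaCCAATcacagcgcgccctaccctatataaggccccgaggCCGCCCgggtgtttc

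Each histone gene had a peak in both genotypes or in neither. A gene is called acetylated where a peak lay within 1 kb of it and peak-free where none did, since a missing peak does not show that acetylation is absent. Of the 69 genes, 40 had a peak of both lists within 1 kb (58.0%, exact 95% interval 45.5 to 69.8) and 29 had none in either list (42.0%, 30.2 to 54.5). No histone gene had a peak in 1 genotype alone: 0 of 69, which allows a share of up to 4.35% by the rule of 3 counts and 5.21% by the exact interval. Over all protein-coding genes, 69.3% had a peak of both lists, 2.24% of the control list alone, 1.79% of the knockout list alone and 26.7% none. The background shares of genotype-only genes thus lay below what 69 genes can exclude. The 40 genes shared 20 acetylated regions, so they are not independent, and the intervals cover counting error only.

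A long gene offers more sequence to a peak, so the count is also given for short genes and for starts alone. The part of gene length in these shares was not tested, and the short genes may differ from histone genes in more than length. Among 1186 other protein-coding genes shorter than 2 kb, 22.6% (20.2 to 25.1) had a peak of both lists. Among the 61 histone genes of that length, 34 did (55.7%, 42.4 to 68.5). With 1 kb either side of the start alone, 35 of the 64 histone genes with a known strand had peaks of both lists and 29 had none. Of 15813 protein-coding genes treated the same way, 61.4% had peaks of both lists, 1.49% of the control list alone, 1.36% of the knockout list alone and 35.8% none.

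**Figure D1:**
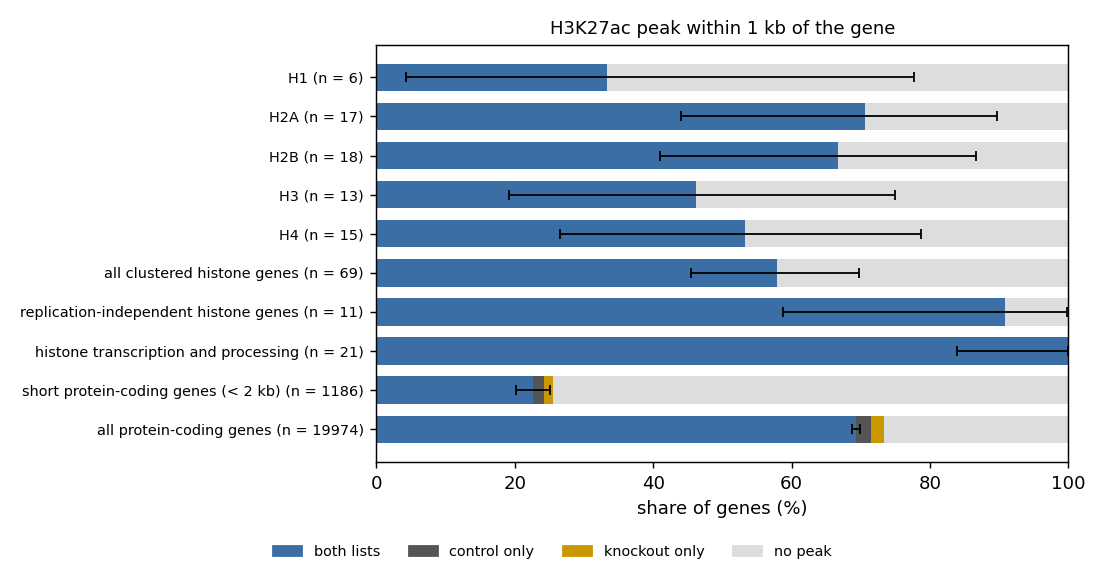
Share of genes (%) with an H3K27ac peak within 1 kb in both lists, in 1 list alone or in neither, for each histone class, for all 69 clustered histone genes and for comparison lists. Error bars are exact 95% binomial intervals of the share with a peak of both lists, and the histone bars hold no genotype-only part.

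The exact 95% intervals of the share of acetylated genes overlapped between all 5 classes. H1 genes encode the linker histones that bind DNA between nucleosomes. Among them H1-2 and H1-4 were acetylated (2 of 6, 4.33 to 77.7%), and H1-1, H1-3, H1-5 and H1-6 were peak-free. Of the H2A genes 12 of 17 had peaks (44.0 to 89.7%), and of the H2B genes 12 of 18 (41.0 to 86.7%). Of the H3 genes 6 of 13 had peaks (19.2 to 74.9%), and of the H4 genes 8 of 15 (26.6 to 78.7%).

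The 12 divergent H2A and H2B pairs had 193 to 247 bp between their genes, and both partners always had the same class. The spacing is shorter than the window of 1 kb, so partners are not independent, and the agreement was the same when only peaks touching the gene were counted. Peaks of both lists lay at 8 pairs: H2BC21/H2AC20, H2BC4/H2AC6, H2BC11/H2AC11, H2BC12/H2AC12, H2BC13/H2AC13, H2AC14/H2BC14, H2AC15/H2BC15 and H2AC17/H2BC17. No peak lay at H2AC7/H2BC7, H2BC8/H2AC8, H2AC1/H2BC1 or H2AC25/H2BC26. Of the paired genes 16 of 24 were acetylated, and of the H2A and H2B genes without such a partner 8 of 11.

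The large chromosome 6 cluster (26017032 to 26285534, 269 kb, 32 genes from H1-1 to H4C8) was divided into an acetylated and a peak-free part. On the lower-coordinate side, 14 of 16 genes from H1-1 to H2BC6 had peaks of both lists, and H1-1 and H1-6 had none. On the higher-coordinate side, 15 genes in a row from H4C4 to H2BC10 had no peak in either genotype, and H4C8 beyond them had peaks again. The peak-free stretch of both lists ran from 26184587 to 26284362 and was 99.8 kb long. The last peak before it ended at 26184586 in control and at 26184549 in knockout, and the next began at 26284363 in control and at 26284425 in knockout.

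The 15 peak-free genes of this stretch covered each class: H1-3, H2AC7, H2AC8, H2BC7, H2BC8, H2BC9, H2BC10, H3C4, H3C6, H3C7, H3C8, H4C4, H4C5, H4C6 and H4C7. The nearest peak was 4124 bp from H4C4 in control and 4161 bp in knockout, and 49376 and 49438 bp from H1-3, near the middle. The annotated H3C4 model overlaps H2AC7, so these are not separate places. No other protein-coding gene lay in the stretch.

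The gene at the lower edge of the stretch had the weakest peak among those over whole histone genes. H2BC6 lay under a peak of 1.76 kb in control (fold enrichment 4.15, percentile 38.7 of the list) and of 1.46 kb in knockout (4.74, percentile 44.3). The fold enrichments are the authors', against a background estimated from input, and are read here only within a list. At the other edge, H4C8 lay under 2.78 kb in control (fold 9.29, percentile 75.8) and 2.97 kb in knockout (13.9, percentile 85.2). The region formed by these H4C8 peaks also touched the transfer RNA gene TRX-CAT1-2.

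Compared with other stretches free of peaks in both lists, this one was short for its number of genes. Of 48639 such stretches 24 held 15 or more whole protein-coding genes, and the other 23 were 226 to 7793 kb long. They held 0.244 to 7.52 protein-coding genes per 100 kb, against 15 here, and included olfactory receptor, keratin-associated and defensin gene arrays. The stretch was singled out after its values were seen, so this ranking is a description. Whether reads were present in the stretch was not analysed here, and a peak list does not tell low acetylation from few reads.

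**Figure D2:**
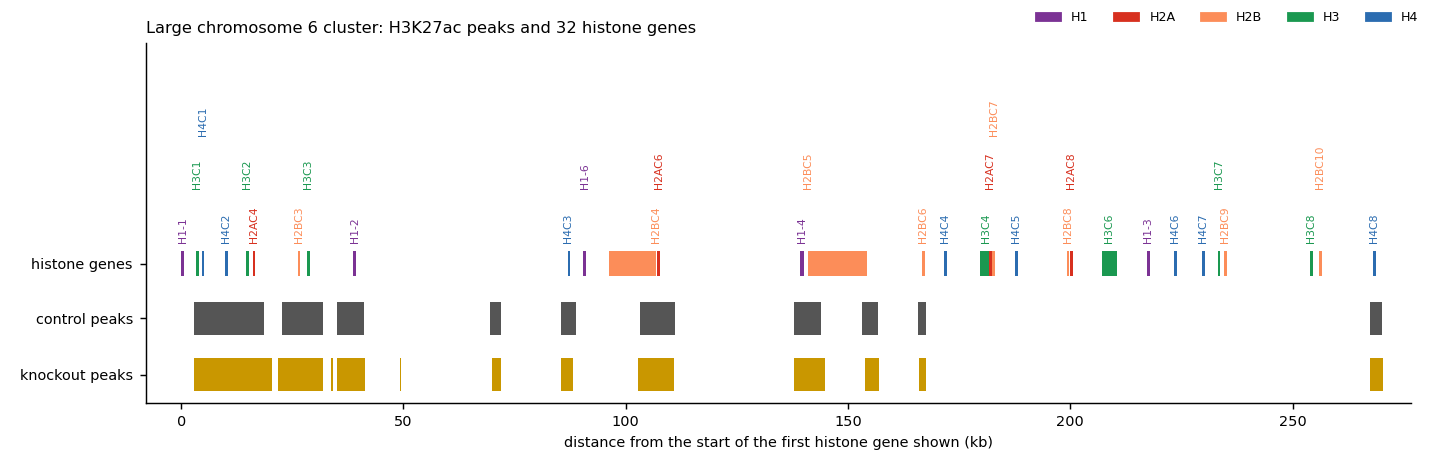
Map of the large chromosome 6 cluster, in kb from the start of H1-1, with histone genes coloured by class above the peaks of the control and of the knockout list. Both lists have peaks up to H2BC6, none over the next 99.8 kb with its 15 genes, and a peak at H4C8.

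Within the acetylated part the widest domain joined 5 genes. From H3C1 to H2AC4 (H3C1, H4C1, H4C2, H3C2 and H2AC4) 1 peak of 15.8 kb lay in control (26020025 to 26035778, fold 10.4) and 1 of 17.5 kb in knockout (26019877 to 26037379, fold 16). H2BC3 and H3C3 shared a peak of 9.12 kb in control (fold 11.7) and 10.2 kb in knockout (14.4). H1-2, 1 of the 2 acetylated linker histone genes, lay under 5.92 kb in control (fold 11, percentile 83.0) and 6.33 kb in knockout (21.1, percentile 95.9). Both of these peaks stood in the upper part of their own lists.

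The remaining acetylated genes of the cluster had peaks at nearly the same places in both genotypes. H2BC4 and H2AC6 shared a peak of 7.93 kb in control (fold 9.73) and 8.12 kb in knockout (17.5). H1-4 and the start of H2BC5 shared 6.06 kb in control (fold 8.98) and 6.92 kb in knockout (16.1), and a separate peak lay at the far end of the long H2BC5 model in both lists. H4C3 lay under 3.54 kb in control (fold 6.54) and 2.83 kb in knockout (9.61). H1-6, the testis linker histone gene beside it, was 1486 bp from the nearest control peak and 2156 bp from the nearest knockout peak.

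The middle chromosome 6 cluster (27132316 to 27147562, 5 genes) held the only genotype-only region at a histone gene. A control-only peak of 542 bp (27140996 to 27141537, fold 3.42, −log10 q 2.74, percentile 26.4) lay inside the long H2BC12 model, away from its start. It lay 1318 bp from H4C9, the 1 gene of this cluster called peak-free, whose nearest knockout peak was 3170 bp away. H2BC11 and H2AC11 shared a peak of 9.16 kb in control (fold 10.5) and 9.45 kb in knockout (15.9). H2AC12 and the start of H2BC12 shared 4.14 kb in control (fold 12.8) and 5.19 kb in knockout (12).

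The distal chromosome 6 cluster (27807479 to 27893891, 16 genes) held the widest histone peak, and it was split in control cells. In knockout cells 1 peak of 20.9 kb (27806955 to 27827817, fold 7.03) joined H2BC13, H2AC13, H3C10, H2AC14, H2BC14 and H4C11. In control cells the same stretch held 3 peaks, of 10.5 kb over the first 5 genes (fold 6.97), of 1.10 kb between genes (fold 3.92) and of 3.26 kb at H4C11 (fold 7.24). They summed to 14.9 kb. A caller may join nearby peaks in 1 list and not in the other, and the part of that in this difference was not tested.

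Beyond this domain, H4C12, H2AC15 and H2BC15 shared 11.4 kb in control (fold 8.28) and 12.4 kb in knockout (13). The next 4 genes had no peak in either genotype: H2AC16, H1-5, H3C11 and H4C13, in a peak-free stretch of 48.3 kb (27841234 to 27889543). H1-5, a linker histone gene, was 21956 bp from the nearest control peak and 22177 bp from the nearest knockout peak. At the far end H3C12, H2AC17 and H2BC17 shared 6.87 kb in control (fold 9.23, percentile 75.5) and 6.70 kb in knockout (17.7, percentile 92.2).

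The testis pair H2AC1 and H2BC1 formed a separate place on chromosome 6 (25726063 to 25727345) far from any peak. The nearest control peak was 183280 bp from H2BC1 and the nearest knockout peak 143406 bp from H2AC1. All 3 testis genes, H1-6 included, were thus without a peak within 1 kb in both genotypes.

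On chromosome 1, 8 of 11 genes of the cluster at 149782689 to 149887965 had peaks of both lists. H2BC21, H2AC20 and H2AC21 shared the histone peak with the highest fold in control, of 5.33 kb (fold 15.9, percentile 94.7), and 1 of 5.90 kb in knockout (21.3, percentile 96.1). H3C13 and the start of H2BC18 shared 2.94 kb in control (fold 9.98) and 3.06 kb in knockout (15). A short peak inside the long H2BC18 model, of 646 bp in control and 714 bp in knockout, also touched FCGR1A. H2AC25 and H2BC26, a separate pair on the same chromosome (228457364 to 228458558), were at least 13918 bp from any peak of either list.

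The 6 near-identical copies in this chromosome 1 cluster are uncertain, since reads from equal sequences cannot be assigned by sequence. Over the 300 bases around the start, H4C14 and H4C15 were 100% identical, H2AC18 and H2AC19 99.3% and H3C14 and H3C15 97.4%. A peak of 7.52 kb in control (149843141 to 149850664, fold 7.22) and 7.50 kb in knockout (fold 8.22) lay between the 2 copies and stopped 391 and 400 bp from H2AC18 and 397 and 410 bp from H2AC19. H3C14 (1933 and 1942 bp away) and H3C15 (1944 and 1957 bp) fell just outside the window, and H4C14 was 10089 bp from a control peak. H4C15 was called only through its long RefSeq model, and its start was 10576 bp from a control peak and 10589 bp from a knockout peak. How reads that match several places were treated was not given in the sources used here. Without these 6 genes, 37 of 63 had peaks of both lists (58.7%).

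H4C16, the 1 member on chromosome 12 (14770720 to 14771131), had among the strongest histone peaks. It lay under 7.46 kb in control (fold 15.3, percentile 93.8) and 7.05 kb in knockout (21.5, percentile 96.3). The same peaks reached H2AJ, a replication-independent H2A gene.

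**Figure D3:**
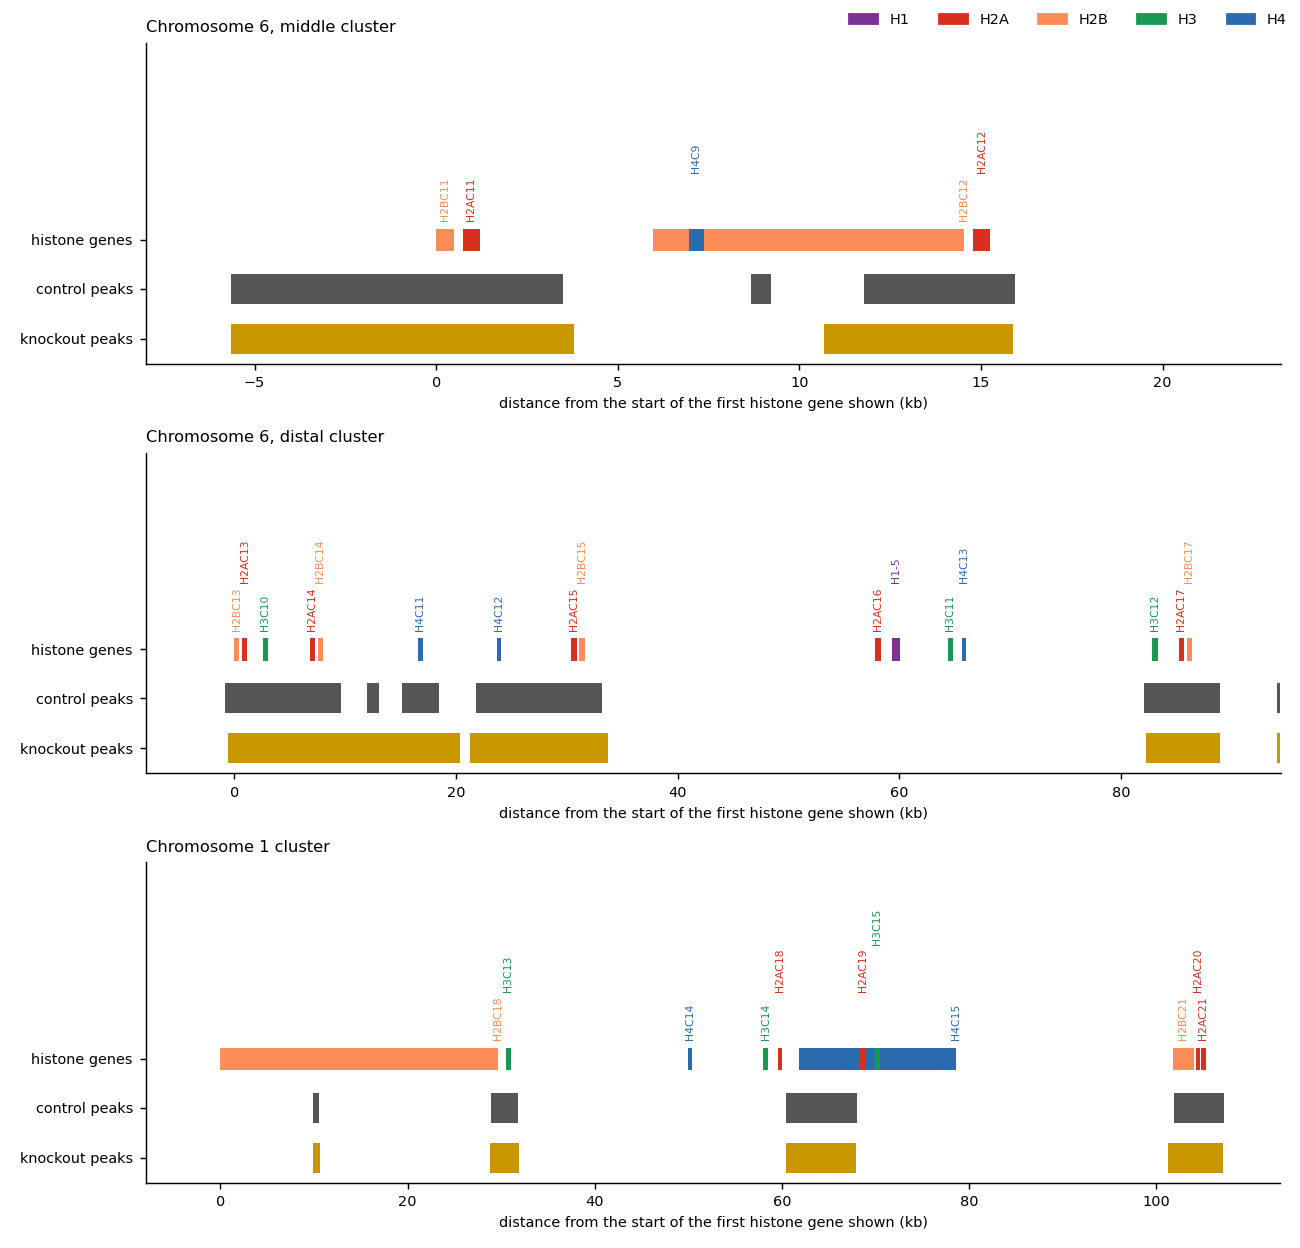
Maps of the middle and distal chromosome 6 clusters and of the chromosome 1 cluster, in kb from the start of the first gene shown, with genes coloured by class and named at their start where the model is long. In the distal cluster 3 control peaks stand above the single knockout peak of 20.9 kb, and 4 genes further on have no peak.

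Distances to the nearest peak were nearly equal in both genotypes, apart from those of H4C9, H1-6 and the testis pair. The peak-free genes nearest the window were H4C9 (1318 bp in control, 3170 bp in knockout), H1-6 (1486 and 2156 bp), H3C14, H3C15 and H1-1 (2238 and 2090 bp). Just inside it were H2AC18 and H2AC19, and the other 38 acetylated genes touched a peak. With a window of 2 kb, H3C14 and H3C15 had peaks of both lists, and H4C9 and H1-6 had 1 of the control list alone.

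**Figure D4:**
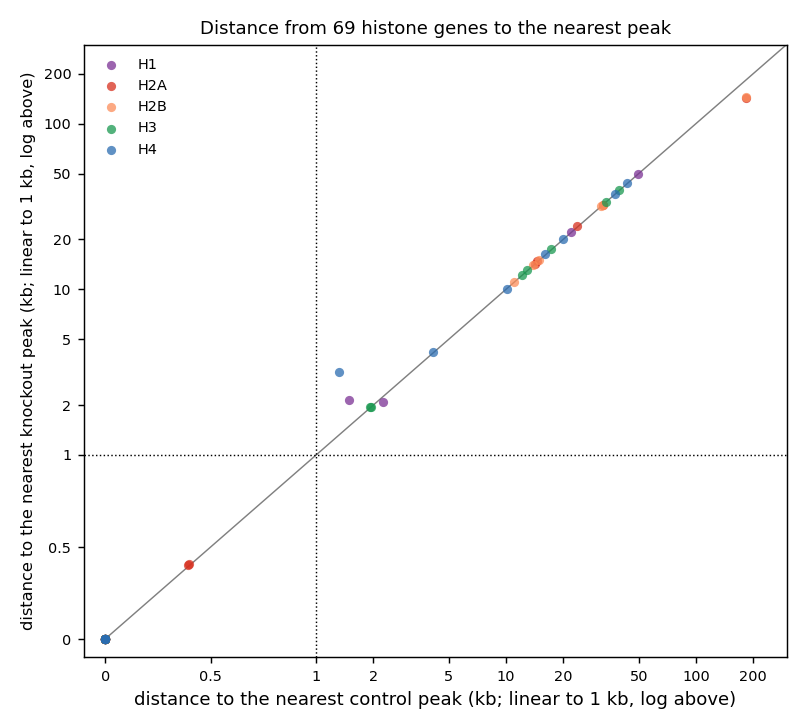
Distance (kb, linear up to 1 kb and logarithmic above) from each of the 69 histone genes to the nearest control peak and to the nearest knockout peak, coloured by class, with the window of 1 kb as dotted lines. Genes lie near the diagonal, and no gene lies within the window for 1 list alone.

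Peaks at histone genes were wide for their lists, which also hold peaks away from genes. Widths and folds of peaks at other genes were not computed, and a wide peak reaches a gene window more easily. The 21 control peaks had a median width of 5.92 kb (0.542 to 15.8 kb), at median percentile 94.6, against a median of 1510 bp in the whole list. The 19 knockout peaks had a median of 6.70 kb (0.714 to 20.9 kb), at median percentile 96.5, against 1527 bp. Wider than 10 kb were 3 of the 21 and 4 of the 19, against 1.53% of all control and 1.18% of all knockout peaks. Several genes lay close together under 1 peak, as many as 6, and 12 of the 20 regions served more than 1 gene.

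Their fold enrichment stood above the middle of each list. The median fold was 9.29 in control (percentile 75.8, list median 5.18) and 14.4 in knockout (percentile 86.4, list median 5.35). In the upper 50% of their list were 19 of 21 control and 18 of 19 knockout peaks, and among the top 10% were 2 of 21 and 5 of 19. Folds and percentiles are not compared between lists, whose number of peaks and background differ.

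**Figure D5:**
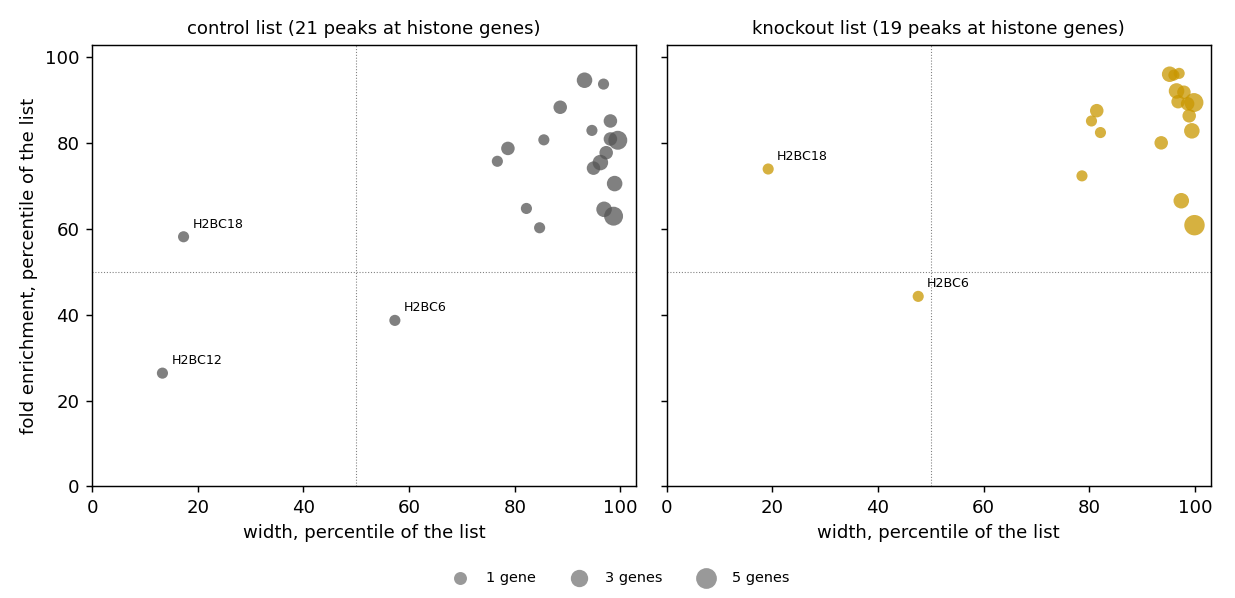
Each point is a peak at histone genes, placed by the percentile of its width and of its fold enrichment within its own list, with point size for the number of histone genes served. Nearly all points lie in the upper right, and the peaks at H2BC6, within H2BC18 and, in control, within H2BC12 stand apart.

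At the level of regions, 19 of 20 at histone genes were shared and 1, within H2BC12, was control-only. Over all 48662 regions of the genome 65.7% were shared, 14.7% control-only and 19.6% knockout-only. These include regions away from genes, and regions at other genes were not counted apart. By gene, 69.3% of all protein-coding genes had peaks of both lists, against 2.24% of the control and 1.79% of the knockout list alone. Peaks at genes in general were thus mostly shared too. Among the 19 shared regions, knockout peaks covered more sequence in 13 (68.4%) and control peaks in 6, against 50.6% of all shared regions with more in knockout. In all, 22 control peaks covered 127 kb of these regions and 19 knockout peaks 138 kb, and the region split in control differed most. The control count includes the 1.10 kb peak between genes, which joined this region through the knockout peak. The lists differ in number of peaks and background, and library depth is not given. Their part in these widths was not tested, so the widths are not read as a difference in acetylation.

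Between the genes of the chromosome 6 clusters there were few peaks of either genotype. Away from the windows of histone genes, 3 regions lay inside these clusters: 1 shared and 2 knockout-only. The shared region lay at HFE, which encodes a regulator of iron uptake and is the 1 other protein-coding gene inside the clusters, with 2.48 kb in control (fold 13.3) and 1.82 kb in knockout (15.1). The knockout-only regions were peaks of 319 bp between H3C3 and H1-2 (26050808 to 26051126, fold 2.36, percentile 2.40) and of 253 bp between H1-2 and HFE (26066200 to 26066452, fold 3.38, percentile 24.9). Both were among the narrowest peaks of their list, at width percentiles 4.94 and 1.67.

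The longer intervals that separate the chromosome 6 clusters held 62 regions, of which 50 were shared, 8 control-only and 4 knockout-only. Over all regions of the genome these shares were 65.7%, 14.7% and 19.6%. The intervals include the butyrophilin genes, immune regulators at the cell surface, of which BTN3A2, BTN2A2, BTN3A1, BTN3A3 and BTN2A1 had peaks of both lists and BTN1A1 had none. Of the 19 other protein-coding genes from H2AC1 to H2BC17, 13 had peaks of both lists (68.4%), near the 69.3% of all protein-coding genes. The other 6 had none, among them the transporter genes SLC17A2, SLC17A3 and SLC17A4. The peaks without a counterpart here were at most 1.21 kb wide in control and 1.01 kb in knockout.

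Those intervals also hold many transfer RNA genes, which RNA polymerase III transcribes. Of 98 such genes from H2AC1 to H2BC17, 32 had peaks of both lists within 1 kb (32.7%), 5 of the control list alone (5.1%), 5 of the knockout list alone (5.1%) and 56 none. Over all 443 annotated transfer RNA genes the shares were 44.5%, 2.26%, 1.58% and 51.7%. No transfer RNA gene lay inside a histone cluster, and neighbouring ones share peaks.

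Of the listed histone genes outside the clusters and genes that act on clustered ones, all but 1 were acetylated in both genotypes. Of 11 replication-independent histone genes, which supply histones outside S phase, 10 had peaks of both lists, among them H3-3A, H3-3B and H2AZ1. MACROH2A2, a macroH2A variant gene, had none. Histone genes outside this list were not counted, and H3Y1 and H3Y2 on chromosome 5 lay in a stretch without peaks of either list. All 21 genes of histone transcription and mRNA processing had peaks of both lists, including NPAT, HINFP, which binds the H4 element, SLBP, which binds the stem-loop, and the U7 snRNP subunits LSM10 and LSM11. All 16 histone chaperone genes, such as CHAF1A, ASF1B and NASP, did too. The background share over all genes was 69.3%.

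The promoter elements followed the histone class. Sequences were found for 64 of the 69 genes, and H4C1, H4C3, H2AC12, H3C11 and H3C12 had no entry. In the 250 bases before the start, CCAAT stood in all 6 H1, 16 H2A, 18 H2B and 11 H3 promoters and in 3 of 13 H4 promoters, against 34.4% of 15813 protein-coding promoters. The octamer stood in 11 of 16 H2A and 14 of 18 H2B promoters but in 1 H3 and no H1 or H4 promoter, against 1.66%. The 1 H3 promoter is that of H3C4, whose RefSeq model has the same start as H2AC7, so it is the H2AC7 promoter counted again. GGTCCG stood in 12 of 13 H4 promoters, against 12.2%, and AAACACA in all 6 H1 promoters and in none of the other classes, against 3.70%. AAACACA was added after these promoters had been read, so its count only describes them. Motifs may overlap, as in TTTATAAA, which holds TATAAA on both strands, and divergent genes share most of their window, so their promoters count the same motif for both.

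Since the elements follow the class, acetylated and peak-free promoters are compared within each class, on small numbers and with no test. The octamer stood in 63.6% of 11 acetylated and 80.0% of 5 peak-free H2A promoters, and in 75.0% of 12 and 83.3% of 6 H2B promoters. The acetylated H2A promoters include those of the near-identical copies H2AC18 and H2AC19, which both lack the octamer. Among H4 promoters, GGTCCG stood in all 6 acetylated and 6 of 7 peak-free ones, and CCAAT in none of the acetylated and 3 of the peak-free ones. The acetylated H4 promoters include that of H4C15, which was called only through its long model and whose start was far from any peak. Its identical copy H4C14 is among the peak-free ones, so the same sequence counts on both sides.

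TATAAA stood in 80.6% of 36 acetylated and 46.4% of 28 peak-free promoters, against 9.25% of all. By class its share was 90.9% and 40.0% in H2A, 83.3% and 33.3% in H2B, 80.0% and 66.7% in H3, 66.7% and 42.9% in H4, and in H1 it stood in 1 of 2 and 2 of 4 promoters. The divergent genes share this stretch, so H2A and H2B do not count separately. In H3 the counts were 4 of 5 acetylated and 4 of 6 peak-free promoters. The 6 include H3C4, which lacks TATAAA and is the H2AC7 promoter counted again. They also include the near-identical copies H3C14 and H3C15, which both have TATAAA, as do the acetylated H2A copies H2AC18 and H2AC19. In H4 the identical promoters of H4C15, counted as acetylated, and H4C14, counted as peak-free, both lack it. The printed sequences show both sides: the peak-free H2AC7/H2BC7 stretch and H1-6 lack TATAAA, but so do the acetylated H4C8 and H1-2. The peak-free H4C4, H3C7, H1-3 and H2AC1/H2BC1 have it. Only the exact letters were searched, so near forms were not counted. Such forms are tataag in the acetylated H4C8 and the peak-free H1-6, and tatata in the acetylated H1-2.

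The median G and C content of acetylated and peak-free promoters was 53.2% and 48.4% in H1, 42.4% and 39.2% in H2A, 41.4% and 37.0% in H2B, 38.4% and 39.6% in H3, and 47.6% and 47.2% in H4. Acetylated promoters had the higher median in each class but H3, and in H4 the medians were nearly equal. With all classes together the median was 42.2% in acetylated and 46.8% in peak-free promoters. The classes make up different shares of these 2 groups. The 15 promoters of the long peak-free stretch had a median of 38.4% and 6 CpG pairs, against 62.4% and 17 in all protein-coding promoters. These medians count H3C4 beside H2AC7, whose promoter it repeats, and H4C15 apart from its identical copy H4C14. They also count the near-identical copies H3C14 and H3C15, both peak-free, and H2AC18 and H2AC19, both acetylated. A match is a description of letters, not of a bound site.

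As a check of the cell line, VIM, CD44, AXL and EGFR had peaks of both lists and the liver, blood and pancreas genes ALB, HBB and INS had none. Of the genes expected to be low in these cells, CDH1, ESR1 and GATA3 had peaks of both lists within 1 kb of the gene or inside it, and PGR had none. Peak lists do not check the ARID1A knockout itself.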

How the data were processed

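The submitters' processing notes name Bowtie2 2.3.5.1, MACS2 2.2.6 and the build hg38. Per the file headers, the authors' peak lists gave position, width, pileup (a coverage signal), fold enrichment (a ratio over the input-based background) and −log10 q-value. The deposited −log10 q values were at least 1.01 in control and 1.00 in knockout. How peaks were called, whether replicates were pooled and library depth are not given in the sources used here. Lists were matched to genotypes by name.

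The lists held 39797 control and 42552 knockout peaks on the autosomes and X. Peaks overlapping by at least 1 bp were merged into regions. A gene had a peak if 1 lay within 1 kb of its RefSeq span on GRCh38.p14 (hg38). Members less than 250 kb apart formed a cluster. Promoter sequences were the 250 bases before the start. Intervals are exact (Clopper-Pearson, 95%), and the limit for a count of 0 is 3 counts. The code was tested on simulated peaks. Named were genes without peaks, with genotype-only regions, with the 5 widest or strongest peaks, near the window's edge, testis genes and near-identical copies. Members and lists were chosen with earlier results of these data known, and the AC box was added after the promoters had been read. No test was run, as there was 1 list per genotype. Python 3.11.15, numpy 2.4.6, pandas 2.3.3, scipy 1.17.1 and matplotlib 3.10.9 were used.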

Additional observations from a re-analysis of the deposited data

Results flagged for a closer look

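Histone pseudogenes were used in none of the comparisons, and 4 of 14 on chromosomes 1 and 6 had peaks of both lists within 1 kb: H2BC19P, H2BC20P, H2AC5P and H4C10P. Each of the 4 touched a peak already counted at a neighbouring histone gene, and the other 10 had no peak in either list.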

How the results depend on the processing

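Of 87 counts recomputed under other settings, 76 stayed within 1.5 times their value. Genes with peaks of both lists ranged from 35 (of 64 with a known strand, at the start alone) to 46 (window of 5 kb), and none was knockout-only under any setting tried. With a window of 2 kb, 2 genes became control-only. With a window of 5 kb, 1 knockout-only region lay at histone genes. Control-only regions at histone genes fell from 1 to 0 with a −log10 q of at least 5, with the upper 50% of each list, at the start alone and at gene ends. Knockout-only regions between genes went from 2 to 1 with the −log10 q limit and to 0 with the upper 50%. With chromosome 6 as a single cluster there were 51 shared, 8 control-only and 6 knockout-only regions between genes. An overlap of 50% of the shorter peak changed no count. Gene ends and the set without near-identical copies were chosen after seeing the data. No paired analysis was possible because each genotype had a single peak list, and no replicate could be left out.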
